A study of Homo sapiens with 3 samples.

Results

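Neurotrophin and GDNF receptors and ligands were examined as 8 genes, NTRK2, NTRK3, NGFR, RET, GFRA1, GFRA2, GFRA3 and BDNF, of 19775 genes measured. They were taken as the probe sets that name each gene alone, which gave 28 of 41091 such probe sets, from 1 for NGFR to 9 for NTRK3. The samples were polyadenylated RNA of the untreated, MYCN-amplified neuroblastoma lines NGP and IMR-32 and of an untreated pool made from 16 cancer cell lines, which served as the reference. Each was measured once, on 1 Affymetrix U133 Plus 2.0 array. NGP was grown in RPMI 1640 and IMR-32 in Minimum Essential Medium, so a difference of medium and a difference of line cannot be told apart. Each line stands for neuroblastoma as a single culture, and the lines within the pool were not analysed here. Values are linear MAS5 signals with no replicate arrays, so nothing below was tested against a spread between samples, p-values are not given, and precision is limited by having 3 arrays in all.

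Neurotrophins act through the TRK receptor tyrosine kinases and through NGFR (p75NTR), a member of the TNF receptor superfamily that binds all neurotrophins and their precursors. BDNF is the ligand of NTRK2 (TrkB), and NTRK3 (TrkC) is the related kinase of another neurotrophin. RET is the signalling kinase of the GDNF family receptors, and it is brought to its ligands by GPI-anchored co-receptors, of which GFRA1 prefers GDNF, GFRA2 neurturin and GFRA3 artemin. These receptors serve survival and differentiation of sympathetic neurons, and NTRK2 with BDNF is known from MYCN-amplified neuroblastoma.

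RET (log2 ratio 4.86 for NGP over IMR-32) and its co-receptor GFRA1 (-2.18) had the largest median differences between the lines among the 8 genes. The place of GFRA1 depended on the summary. With the brightest probe set of each gene, GFRA3 (-2.95) and BDNF (2.23) differed by more, as did GFRA3 without dim probe sets. RET was high in NGP and dim in IMR-32, with GFRA1 the other way round, and GFRA2 exceeded the pool in both lines, by more in IMR-32. BDNF was higher in NGP than in IMR-32 and the pool. NTRK2, NGFR and GFRA3 were dim (median signal below the array median in every sample), and NTRK3 was moderate in IMR-32 and low in NGP. The sequence before the start of RET, GFRA1 and BDNF is given here because RET and GFRA1 encode partners of a single receptor with opposite order of signals in the lines, and BDNF is the ligand gene of the group. RefSeq start windows (GRCh38.p14) were used for 6 of the 8 genes, since none was found for NGFR and those of GFRA2 were left out beforehand. Of each, the 250 bases before the most upstream listed start are shown, written 5′ to 3′ on the strand of the gene, at chr10:43076819-43077068 (+) for RET, chr10:116274706-116274955 (-) for GFRA1 and chr11:27722031-27722280 (-) for BDNF. Capitals mark the motifs found.
RET: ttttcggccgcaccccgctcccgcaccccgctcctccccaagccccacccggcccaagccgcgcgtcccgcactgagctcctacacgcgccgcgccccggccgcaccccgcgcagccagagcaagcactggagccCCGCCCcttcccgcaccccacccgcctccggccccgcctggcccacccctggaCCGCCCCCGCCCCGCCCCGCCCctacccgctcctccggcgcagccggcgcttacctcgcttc
GFRA1: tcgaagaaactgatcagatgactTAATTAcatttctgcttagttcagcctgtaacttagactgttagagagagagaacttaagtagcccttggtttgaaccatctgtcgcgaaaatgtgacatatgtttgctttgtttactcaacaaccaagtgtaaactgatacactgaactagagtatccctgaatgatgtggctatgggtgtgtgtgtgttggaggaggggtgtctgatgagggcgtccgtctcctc
BDNF: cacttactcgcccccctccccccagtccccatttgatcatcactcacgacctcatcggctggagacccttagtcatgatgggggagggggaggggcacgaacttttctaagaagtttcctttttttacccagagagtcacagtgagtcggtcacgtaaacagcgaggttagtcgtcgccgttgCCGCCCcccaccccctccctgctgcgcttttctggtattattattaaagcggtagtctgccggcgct

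The motifs searched on both strands were the GC box GGGCGG, the E-box CACGTG, the TATA-type TATAAA, the cAMP response element TGACGTCA and the homeodomain core TAATTA. The RET window held 5 GC boxes, some adjoining or overlapping in a single run, and 79.6% G or C, against a median of 58.0% over 35116 windows. The GFRA1 window held 1 TAATTA, 0 GC boxes and 43.2% G or C. The BDNF window held 1 GC box and 56.0% G or C, and the windows of NTRK2, NTRK3 and GFRA3 held 1, 2 and 1 GC boxes. Of all windows, 42.6% hold a GC box and 4.35% hold TAATTA. The motifs CACGTG (6.34% of windows), TATAAA (10.7%) and TGACGTCA (1.65%) were in none of the 6 windows. The table lists 2 starts for RET, 4 for GFRA1 and 5 for BDNF, and the arrays do not say which start was used.

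The labels were checked against marker genes. Of 9 measured sympathoadrenal markers, 8 lay within the top 7% of ratios over the pool in NGP and 6 in IMR-32. In IMR-32, 5 of these were not dim, and the other was MYCN. In IMR-32, the noradrenaline synthesis genes TH and DBH were not above the pool (log2 ratios -1.40 and -0.33), whereas in NGP they were at 4.01 and 2.06. All 5 epithelial markers lay within the bottom 7% in both lines, with summed signals of 284 in NGP, 371 in IMR-32 and 56210 in the pool. Schwann and glial markers (3 measured) had summed signals of 125 in NGP, 49.4 in IMR-32 and 206 in the pool, with SOX10 and S100B below the median of every array. The 10 probe sets naming MYCN disagreed, with ratios over the pool between -4.20 and 5.23 in NGP and between -4.60 and 3.62 in IMR-32, so their median (1.63 in NGP and 1.89 in IMR-32) is no firm measure of MYCN. The summed signals of 4 haematopoietic markers were 133.05 in NGP, 73.6 in IMR-32 and 383 in the pool. Those of 6 mesenchymal markers were 11480 in NGP, 6417 in IMR-32 and 15473 in the pool, and the part of any of these cell types in the results below was not tested. A ratio over the pool is set by the lines in the pool as much as by the neuroblastoma line. In such bulk RNA, fewer cells with a transcript and less of it per cell cannot be told apart.

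**Figure D1:**
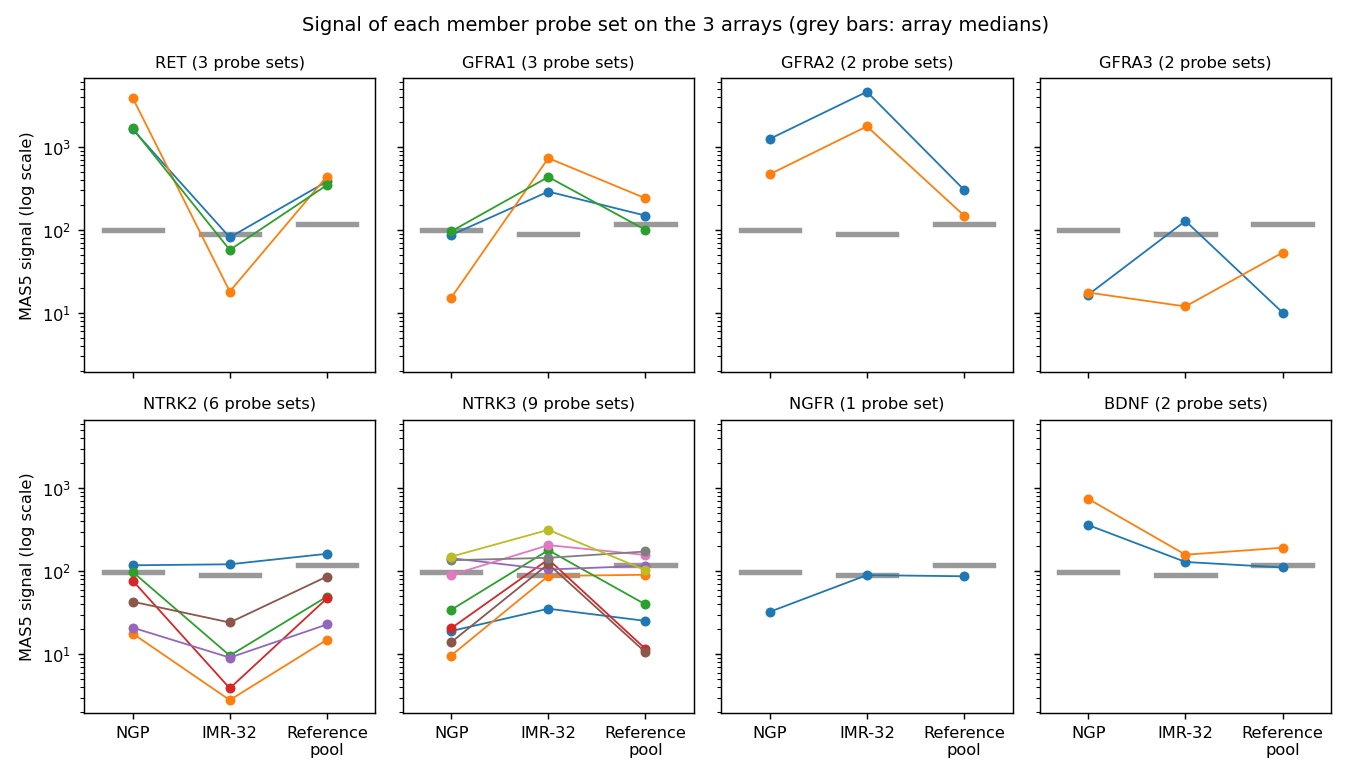
MAS5 signal (log scale) of each probe set of the 8 genes in NGP, IMR-32 and the reference pool, with a line joining the values of a probe set and a grey bar at the median of each array. The 3 RET probe sets lie at 1632 or above in NGP and below the array median in IMR-32, whereas both GFRA2 probe sets peak in IMR-32.

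RET had the largest difference between the lines among the 8 genes. Probe set 211421_s_at had a signal of 3910 in NGP, 18.1 in IMR-32 and 440 in the pool. Probe set 205879_x_at had a signal of 1632 in NGP, 81.2 in IMR-32 and 383 in the pool. Probe set 215771_x_at had a signal of 1669 in NGP, 57.3 in IMR-32 and 347 in the pool. All 3 probe sets thus gave the same order, with NGP highest and IMR-32 lowest. In NGP they lay between percentiles 89.8 and 95.7 of all probe sets of the array, and in IMR-32 between 19.9 and 47.6. The median log2 ratio was 2.27 for NGP over the pool (4.81-fold), -2.60 for IMR-32 over the pool (6.05-fold lower) and 4.86 for NGP over IMR-32 (29.1-fold). Since all IMR-32 signals were below the array median of 89.9, the size of the last ratio is not firm. It was 4.25 on the log2(signal + 32) scale, still past the cut-off. All RET probe sets are of the _s_at or _x_at kind, which can share sequence with other transcripts.

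GFRA1, the co-receptor that prefers GDNF, was higher in IMR-32 than in NGP on each of its 3 probe sets. Probe set 227550_at had a signal of 15.2 in NGP, 733 in IMR-32 and 240.3 in the pool. Probe set 230163_at had a signal of 96.0 in NGP, 434 in IMR-32 and 100.03 in the pool. Probe set 205696_s_at had a signal of 86.8 in NGP, 289 in IMR-32 and 149 in the pool. NGP lay below its array median of 98.8 in all of them, and IMR-32 lay above the median of its array in all of them. The median log2 ratio of NGP over IMR-32 was -2.18 (4.52-fold lower), with probe sets ranging from -5.59 to -1.74. Without the _s_at probe set it was -3.88. Over the pool the ratio was -0.78 in NGP and 1.61 in IMR-32 (3.05-fold), and the IMR-32 value fell short of the upper cut-off of 1.68.

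GFRA2, the neurturin co-receptor, was above the array median in all 3 samples. Probe set 205721_at had a signal of 1249 in NGP, 4619 in IMR-32 and 305 in the pool. Probe set 205722_s_at had a signal of 469 in NGP, 1769 in IMR-32 and 149 in the pool. Both probe sets gave the order IMR-32, NGP, pool. The log2 ratio was 1.84 for NGP over the pool (3.59-fold), 3.75 for IMR-32 over the pool (13.4-fold) and -1.90 for NGP over IMR-32 (3.74-fold lower). The IMR-32 ratio lay at percentile 99.5 of all genes. The calls of NGP over the pool and over IMR-32 lay close to the cut-offs, and each was lost in 5 of 10 alternative settings. The probe sets differed by little, with 3.57 and 3.92 for IMR-32 over the pool, against a standard deviation of 1.31 among probe sets naming the same gene.

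GFRA3, the artemin co-receptor, gave no single direction. Probe set 214479_at had a signal of 16.6 in NGP, 128 in IMR-32 and 10.1 in the pool, and 229936_at had a signal of 17.5 in NGP, 11.9 in IMR-32 and 53.3 in the pool. Only the IMR-32 signal of 214479_at reached the median of its array. The ratios of the probe sets for IMR-32 over the pool were 3.67 and -2.16, so their median of 0.75 describes neither. With the dim probe set left out GFRA3 was within the top 7% in IMR-32.

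**Figure D2:**
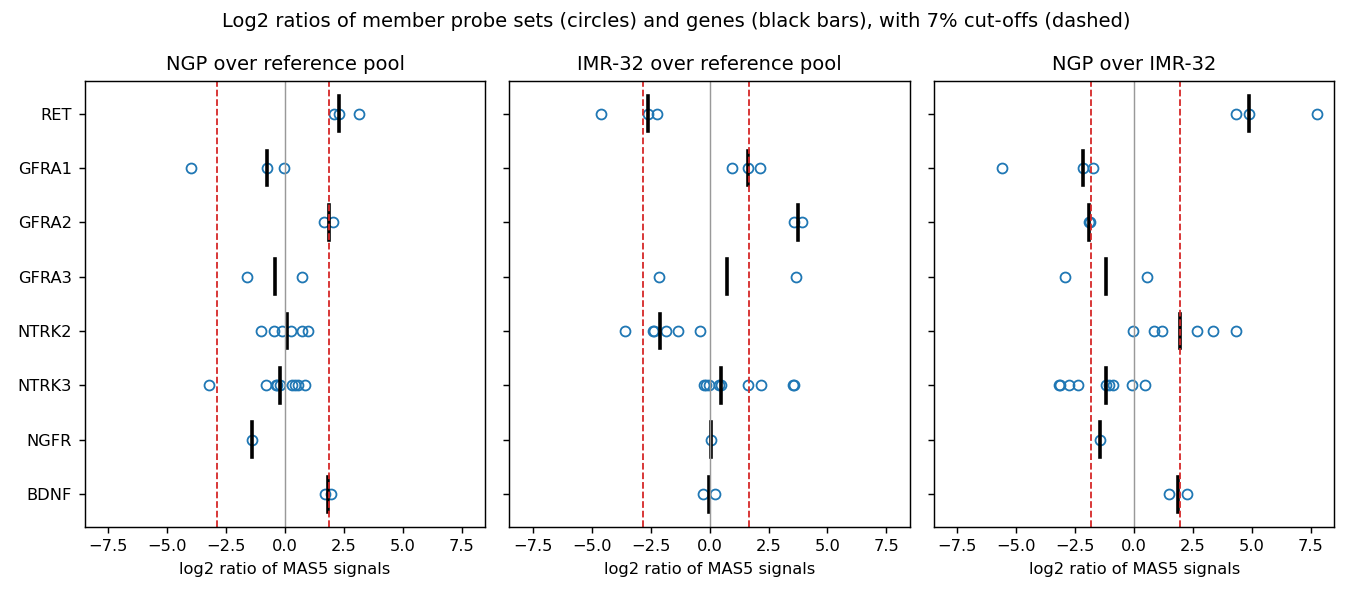
Log2 ratios of MAS5 signals (x axis) in 3 panels, each line over the pool and then the lines against each other, with circles for probe sets, black bars for the median of a gene and dashed lines at the 7% cut-offs. RET lies above the upper cut-off and GFRA1 and GFRA2 lie below the lower cut-off for NGP over IMR-32, while the GFRA3 probe sets fall on both sides of 0.

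BDNF, a ligand of NTRK2 and NGFR, was highest in NGP. Probe set 239367_at had a signal of 744 in NGP, 158 in IMR-32 and 192 in the pool. Probe set 206382_s_at had a signal of 360 in NGP, 129 in IMR-32 and 111 in the pool. NGP stood apart from the other samples in both, whereas the order of IMR-32 and the pool differed between the probe sets. The log2 ratio was 1.83 for NGP over the pool (3.55-fold), -0.03 for IMR-32 over the pool and 1.86 for NGP over IMR-32 (3.62-fold). Both ratios of NGP lay just short of their cut-offs, which they passed in 3 of 10 alternative settings over the pool and in 5 of 10 over IMR-32.

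NTRK2, the receptor kinase for BDNF, was dim in every sample. Of its 6 probe sets, only 207152_at reached the array median, with a signal of 118 in NGP, 121 in IMR-32 and 162 in the pool. The next brightest in NGP, 221795_at, had a signal of 98.2 in NGP, 9.62 in IMR-32 and 49.4 in the pool, and 221796_at had 77.1 in NGP, 3.88 in IMR-32 and 47.0 in the pool. The other 3 probe sets lay between 17.7 and 42.9 in NGP, between 2.80 and 24.1 in IMR-32 and between 14.9 and 86.2 in the pool. NGP thus exceeded IMR-32 on 5 of the 6 probe sets, and the exception was the brightest. The median log2 ratio was 0.06 for NGP over the pool, -2.10 for IMR-32 over the pool (4.29-fold lower) and 1.93 for NGP over IMR-32. With dim probe sets left out the last ratio was -0.04, and on the log2(signal + 32) scale it was 0.47, so an order of the lines cannot be read for NTRK2. The files do not state which NTRK2 transcripts, those with or without the kinase part, each probe set detects.

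NTRK3 was higher in IMR-32 on 8 of 9 probe sets. Probe set 228849_at had a signal of 150 in NGP, 315 in IMR-32 and 103 in the pool. Probe set 213960_at had a signal of 34.2 in NGP, 179 in IMR-32 and 39.8 in the pool. Probe set 215025_at had a signal of 20.6 in NGP, 139 in IMR-32 and 11.6 in the pool, and 215311_at had 13.9 in NGP, 122 in IMR-32 and 10.5 in the pool. In these 4 probe sets, which are not of the _s_at or _x_at kind, IMR-32 was above its array median and higher than NGP and the pool. The 3 _x_at probe sets differed less, with signals between 89.9 and 144 in NGP, between 105 and 206 in IMR-32 and between 116 and 173 in the pool. The 2 _s_at probe sets were below the median in every array. Over all 9 the median log2 ratio was -0.22 for NGP over the pool, 0.49 for IMR-32 over the pool and -1.20 for NGP over IMR-32 (2.29-fold lower). With _s_at and _x_at probe sets left out NTRK3 was at 2.85 for IMR-32 over the pool and -2.57 for NGP over IMR-32, each past its cut-off.

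NGFR was measured by 1 probe set, 205858_at, with a signal of 32.4 in NGP, 89.7 in IMR-32 and 86.9 in the pool. All 3 signals were below the median of their array. NGP was the lowest, with a log2 ratio of -1.42 over the pool and -1.47 over IMR-32, whereas IMR-32 was at 0.05 over the pool. None of these passed a cut-off.

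Over the pool, 2 of the 8 genes lay within the top 7% of ratios in NGP (RET and GFRA2) and 0 within the bottom 7%, against a background of 7.0% of all genes per tail, which the cut-offs fix. In IMR-32, 1 lay within the top 7% (GFRA2; background 7.0%) and 0 within the bottom 7% (7.0%). For NGP over IMR-32, 1 lay within the top 7% (RET; 7.0%) and 2 within the bottom 7% (GFRA1 and GFRA2; 7.0%). The cut-offs were 1.84 and -2.88 in NGP, 1.68 and -2.83 in IMR-32, and 1.95 and -1.84 for NGP over IMR-32. The median ratio of the 8 genes was -0.08 in NGP, 0.27 in IMR-32 and -1.20 for NGP over IMR-32, against -0.22, -0.23 and 0.02 over all genes. The comparisons over the pool share the pool array. GFRA2 in NGP passed narrowly, with 1.8449 against a cut-off of 1.8422, and BDNF with 1.8259 did not. For NGP over IMR-32, NTRK2 (1.93) and BDNF (1.86) lay just outside the upper cut-off. Probe sets naming the same gene had a standard deviation of 1.41 in NGP, 1.31 in IMR-32 and 1.28 for NGP over IMR-32. This is not a spread between arrays or cultures, which 1 array per line cannot give. The smallest difference between the lines among the 3 RET probe sets was 4.33. Of the 28 probe sets, 11 were at or above the array median in NGP, 16 in IMR-32 and 11 in the pool, and 9 were below it in all 3.

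**Figure D3:**
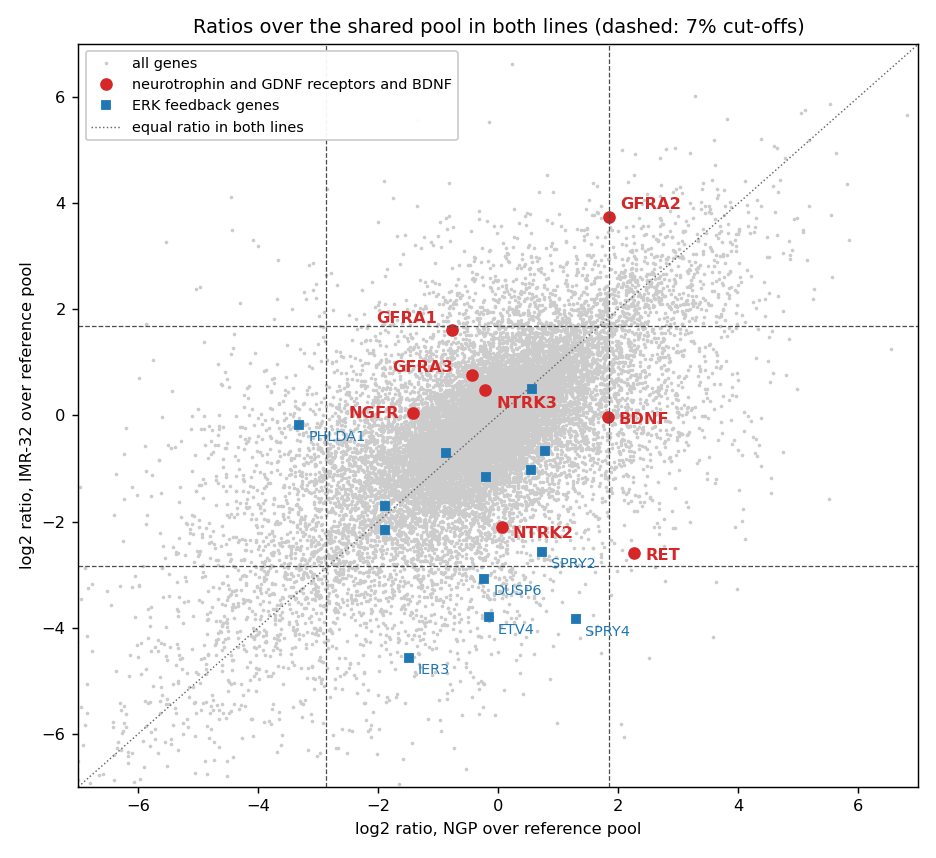
Log2 ratio over the reference pool in NGP (x axis) and IMR-32 (y axis) for all genes (grey; 96 genes beyond ±7 are not drawn), the 8 receptor and ligand genes (red) and ERK feedback genes (blue squares), with 7% cut-offs (dashed) and equality (dotted). Both axes share the pool array. RET lies at 2.27 in NGP and -2.60 in IMR-32. Of 13 ERK feedback genes, 5 pass the upper and 1 the lower cut-off for NGP over IMR-32. That comparison uses the arrays of both axes, so it is not independent of their side of the dotted line.

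The nearest patterns over the 3 arrays were found by the Euclidean distance between pairs of log2 ratios over the pool, among 13381 other genes that reach an array median. For RET these were LORICRIN (distance 0.19), GATA6 (0.25) and SCN1A (0.33). For GFRA1 they were GRIK2 (0.13), MFNG (0.19) and BRME1 (0.23), and for GFRA2 they were KIT (0.08), LSAMP (0.14) and OR7A17 (0.19). For BDNF they were KIF1B (0.02), OGFOD2 (0.05) and LINC01267 (0.07), and for NTRK3 they were MAN1A2 (0.01), RPAP1 (0.03) and PTPN11 (0.03). Of these 5 genes, RET had the largest distance to its nearest gene. NTRK2, NGFR and GFRA3 had a median signal below the array median in every sample and were not searched.

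Of 16 further ligands, receptors and co-receptors of these systems, 9 were measured and the others were not analysed here. SORCS1, a receptor of the sortilin family, had a median signal of 916 in NGP, 854 in IMR-32 and 168 in the pool. Its ratio was within the top 7% in both lines (2.59 in NGP and 2.42 in IMR-32), with 0.17 between them. SORCS2, a partner of NGFR in the binding of proneurotrophins, was at 1.15 in NGP and -0.09 in IMR-32, and SORCS3 at 0.76 and -0.53 from dim signals. The other ligand genes measured were dim or near the array medians. NRTN (neurturin) had a signal of 32.1 in NGP, 58.3 in IMR-32 and 144 in the pool, and was at -2.16 in NGP and -1.30 in IMR-32 over the pool. ARTN (artemin) was at -2.74 in NGP and 0.82 in IMR-32, and PSPN (persephin) was at 0.33 in NGP and 0.76 in IMR-32, each from signals near or below the array medians and with probe sets on both sides of 0 in each line. GFRA4, the persephin co-receptor, was dim in all samples (0.25 in NGP and -0.87 in IMR-32), again with probe sets on both sides of 0. NCAM1, an alternative receptor for GDNF, was at 1.02 in NGP and 1.05 in IMR-32, but its 7 probe sets spread between -3.11 and 2.59 in NGP and between -1.25 and 4.39 in IMR-32. SDC3, a heparan sulphate proteoglycan that binds GDNF family ligands, was at -1.34 in NGP and within the bottom 7% in IMR-32 at -3.09, but its 2 probe sets were far apart, at -3.61 and 0.93 in NGP and at -5.28 and -0.89 in IMR-32.

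Of 24 adaptors and effectors of TRK and RET receptors, 22 were analysed. FRS2 and CRK were not, because no probe set used here named them alone. The study reported FRS2 as amplified and overexpressed in NGP. In NGP 7 of them lay within the top 7% over the pool and 0 within the bottom 7%, and in IMR-32 2 lay within the top 7% and 0 within the bottom 7%. The list medians were 0.33 in NGP, 0.14 in IMR-32 and 0.17 for NGP over IMR-32. SHC3, the neuronal member of the SHC adaptor family, had a median signal of 801 in NGP, 137 in IMR-32 and 138 in the pool, and was at 4.34 in NGP and -0.55 in IMR-32 over the pool. Its 3 probe sets varied widely, from 0.62 to 4.63 in NGP. DOK4, a docking protein that binds RET, had a median signal of 2600.4 in NGP, 261 in IMR-32 and 343 in the pool. All 3 DOK4 probe sets were higher in NGP than in IMR-32, by 2.54 to 3.70. IRS2, a docking protein of the insulin receptor that also serves TRK receptors, had a median signal of 3729 in NGP, 770 in IMR-32 and 697 in the pool. NGP over IMR-32 was past the upper cut-off for 3 of the 22, namely SHC3 (3.89), DOK4 (3.59) and IRS2 (2.09), and past the lower cut-off for 0.

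Other adaptors were called over the pool without a call between the lines. DOK6, a RET-binding relative of DOK4, was at 3.83 in NGP and 3.61 in IMR-32. Its median signal was 125 in NGP, 137 in IMR-32 and only 11.2 in the pool. The DOK6 probe sets ranged from 0.82 to 4.06 in NGP and from 0.96 to 4.22 in IMR-32, so the size is not firm. GAB2, a scaffold for PI3 kinase and SHP2 signalling, was at 3.37 in NGP and 2.13 in IMR-32. KIDINS220, a membrane scaffold phosphorylated by TRK receptors, was at 1.97 in NGP and 0.03 in IMR-32. SOS1, the exchange factor that activates RAS, was at 2.00 in NGP and 0.70 in IMR-32, and its 5 probe sets spread between -0.59 and 2.19 in NGP.

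All 12 listed partners of p75NTR were measured. BEX1, a small protein that binds the receptor's cytoplasmic part, had a signal of 17889 in NGP, 14958 in IMR-32 and 2914 in the pool, within the top 7% in both lines (2.62 in NGP and 2.36 in IMR-32). NDN (necdin), a MAGE family protein, had a signal of 13.2 in NGP, 10.3 in IMR-32 and 699 in the pool, within the bottom 7% in both lines. The list medians were -0.04 in NGP, 0.08 in IMR-32 and 0.12 for NGP over IMR-32, and 0 of the 12 were called between the lines. Of 11 proteases that process proneurotrophins, 9 had probe sets used here, with list medians of -0.85 in NGP, -0.83 in IMR-32 and 0.16 for NGP over IMR-32. PCSK7, a proprotein convertase, was lower in NGP than in IMR-32 by more than the cut-off (-1.96, from probe sets at -3.35 and -0.57). Its median signal was 78.9 in NGP, 370 in IMR-32 and 245 in the pool. MMP7 passed the cut-offs for IMR-32 over the pool and for NGP over IMR-32 from dim signals.

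ERK feedback genes, which are induced by RAS and ERK signalling downstream of receptor tyrosine kinases, were lower in IMR-32 than in NGP for several members. Of 13 measured, 4 lay within the bottom 7% in IMR-32 over the pool and 0 within the top 7%, whereas in NGP 1 lay within the bottom 7% and 0 within the top 7%. For NGP over IMR-32, 5 lay within the top 7% and 1 within the bottom 7%. The list medians were -0.20 in NGP, -1.71 in IMR-32 and 1.57 for NGP over IMR-32, against 0.02 over all genes in the last comparison. SPRY4, a Sprouty inhibitor of RAS and ERK signalling, had a signal of 1007 in NGP, 28.6 in IMR-32 and 411 in the pool. SPRY2, of the same family, had a signal of 1349.9 in NGP, 138 in IMR-32 and 818 in the pool. Both thus had the order of samples seen for RET, as did DUSP4 and SPRED2 by median signal and by median ratio. DUSP6 had this order by median signal only, since its median ratio of NGP over the pool was -0.23. The share of all genes with this order was not counted. The remaining genes of the list had other orders.

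ETV4, an ETS family transcription factor, had a median signal of 468 in NGP, 37.3 in IMR-32 and 541 in the pool, and DUSP6, a phosphatase of ERK, had 535 in NGP, 124 in IMR-32 and 512 in the pool. IER3, an immediate early gene, had a signal of 1472 in NGP, 175 in IMR-32 and 4154 in the pool. For these 3 genes IMR-32 was the lowest sample. The median ratio of NGP over the pool was -0.16 for ETV4, -0.23 for DUSP6 and -1.50 for IER3. PHLDA1 ran the other way, with 142 in NGP, 633 in IMR-32 and 808 in the pool, and all 6 of its probe sets were lower in NGP than in IMR-32. EGR1 (-0.18), ETV5 (-0.25), SPRED1 (0.06) and DUSP5 (0.26) showed little difference between the lines. Many receptors other than RET feed into this pathway, and the part of RET in these values was not tested.

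**Figure D4:**
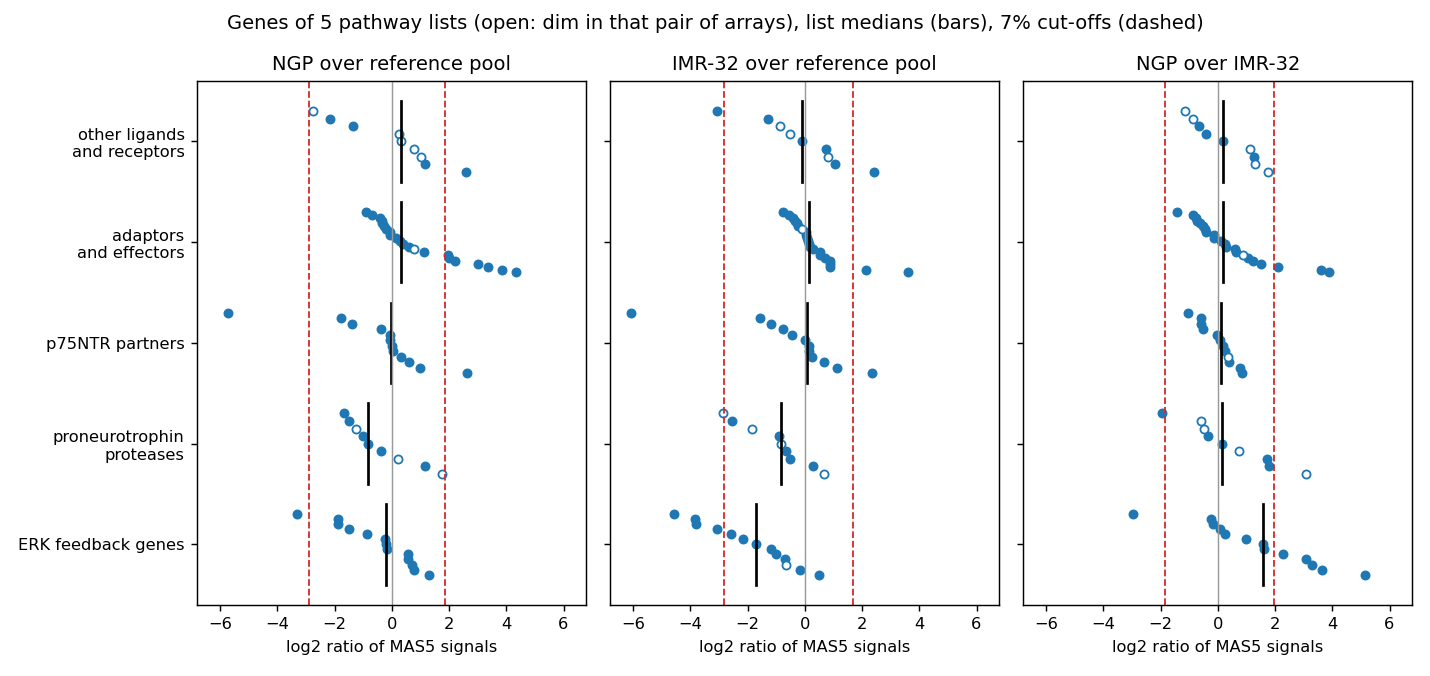
Log2 ratios (x axis) of the measured genes of 5 pathway lists in 3 panels, each line over the pool and then the lines against each other, with open circles for genes dim in that pair of arrays, black bars for list medians and dashed lines at the 7% cut-offs. The ERK feedback genes have a median of 1.57 for NGP over IMR-32, and the other 4 lists lie between 0.12 and 0.17.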

How the data were processed

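Gene expression was measured in NGP, IMR-32 and a reference pool of 16 cancer cell lines with 1 Affymetrix U133 Plus 2.0 array each. The deposited values are signal intensities that the authors obtained by MAS5 in affy of Bioconductor (version not given in the sources used here), and each array had a mean of 500 with 2% trimmed at each end. Of 54675 probe sets, 62 are controls, 41091 name 1 gene symbol in the array annotation, 1801 name several and 11721 name none. Those naming 1 symbol were used, and 41037 of them were matched to the RefSeq gene table (GRCh38.p14) by gene ID for current symbols. Each probe set gave log2 ratios with no pseudocount, the median over probe sets was the value of a gene, and the top and bottom 7% of ratios were called, after the study's methods. A signal is called dim below the median of its array. The named genes were the 8 receptors and ligands with their probe sets and every measured further ligand or receptor. Also named were genes of the other lists that passed a cut-off and were not dim. The 3 nearest patterns were added for each of the 8 genes whose median signal reached an array median. The cell type markers TH, DBH, MYCN, SOX10 and S100B and the genes EGR1, ETV5, SPRED1, SPRED2, DUSP4, DUSP5 and MMP7 were named after their values were seen. The 8 genes and the lists were chosen with earlier results of these data known. Results were recomputed under 10 alternatives: subtraction of the median ratio, quantile normalization, a pseudocount of 32, removal of dim probe sets, a gene's brightest probe set or the mean of its probe sets, removal of the _s_at and _x_at kinds, cut-offs set over probe sets, and tails of 5% and 10%. The ratio and cut-off steps were tested on simulated data. The versions were matplotlib 3.10.9, pandas 2.3.3, SciPy 1.17.1 and numpy 2.4.6, under Python 3.11.15. Copy number and FISH data were not analysed here.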

Additional observations from a re-analysis of the deposited data

Results flagged for a closer look

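For 7 of the 8 genes the ratios over the pool ran in opposite directions in the lines, a difference that was not tested, since there is 1 array per line. RET was at 2.27 in NGP and -2.60 in IMR-32 (4.86 for NGP over IMR-32), and GFRA1 at -0.78 and 1.61 (-2.18). In these genes every probe set followed the direction of the median in both lines. NTRK2 was at 0.06 in NGP and -2.10 in IMR-32 (1.93), NTRK3 at -0.22 and 0.49 (-1.20), and GFRA3 at -0.44 and 0.75 (-1.20), with probe sets on both sides of 0 in at least 1 line. NGFR was at -1.42 in NGP and 0.05 in IMR-32 (-1.47) and BDNF at 1.83 and -0.03 (1.86), so that in these the IMR-32 ratio is close to 0. Opposite directions over the pool rest on signs that changed under some alternative settings for 4 of the 7 genes. These were NTRK2 in NGP (8 of 10 settings kept the sign), NTRK3 in NGP (6 of 10), GFRA3 in NGP (8 of 9) and BDNF in IMR-32 (8 of 10). These counts include the settings that change only the cut-offs, in which no sign can change. NTRK3 in NGP turned positive with median subtraction, quantile normalization, the brightest probe set and removal of _s_at and _x_at probe sets.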

How the results depend on the processing

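Of the 24 ratios of the 8 genes, 19 kept their sign under each alternative that gave a value, and 3 of the 6 calls were kept under all of them, namely RET in NGP, RET for NGP over IMR-32 and GFRA2 in IMR-32. With _s_at and _x_at left out no RET value is left. No called ratio changed sign. Of 233 ratios under the alternatives, 218 moved by less than the standard deviation between probe sets and 15 by more. Part of this was fixed in advance. Cut-offs over all probe sets and the 5% and 10% tails leave every ratio as it was. The mean over probe sets equals the median for genes with 1 or 2 probe sets. The number within the top 7% in NGP (2) was 1 with quantile normalization, without dim probe sets, with cut-offs over all probe sets and with the 5% cut-off, since GFRA2 was lost, 0 with _s_at and _x_at left out, and 3, with BDNF, with log2(signal + 32), the mean over probe sets and the 10% cut-off. In IMR-32 the number within the top 7% (1) was 2 with log2(signal + 32) and with the 10% cut-off, and 3 without dim probe sets, with the brightest probe set and without _s_at and _x_at. The number within the bottom 7% in IMR-32 (0) was 1, RET, with log2(signal + 32), the mean over probe sets and the 10% cut-off. For NGP over IMR-32 the number within the top 7% (1) was 2 with quantile normalization, removal of dim probe sets, log2(signal + 32), the brightest probe set and the mean, and 3 with the 10% cut-off. The number within the bottom 7% there (2) was 1 with quantile normalization and with cut-offs over all probe sets, 0 with the 5% cut-off, and 3 without dim probe sets (with GFRA3) and with the 10% cut-off (with NGFR). Some counts stayed the same with other genes. For NGP over IMR-32 the bottom 2 were GFRA1 and GFRA3 with the brightest probe set. With _s_at and _x_at left out they were NTRK3 and GFRA1, and the top 1 was BDNF. The causes of these changes were not tested. No paired analysis was possible because there is 1 array per sample. Signals near or below the array median limit several genes. With dim probe sets left out, GFRA1 in NGP was at -2.38 (-0.78 with all), NTRK3 in IMR-32 at 1.89 (0.49), GFRA3 in IMR-32 at 3.67 (0.75) and NTRK2 in IMR-32 at -0.42 (-2.10), and NGFR had no value.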
